A study of Mus musculus with 4 samples.

Results

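Protein phosphatase 2A (PP2A) was examined in ATAC-Seq data from long-term hematopoietic stem cells (LT-HSCs) with and without Sin3B, a scaffold of the Sin3-HDAC corepressor complex. The set held 10 genes: the catalytic subunits Ppp2ca and Ppp2cb, the activator Ptpa, the scaffolds Ppp2r1a and Ppp2r1b, the B55 subunit Ppp2r2a, and the B56 subunits Ppp2r5a, Ppp2r5c, Ppp2r5d and Ppp2r5e. Its peaks were the rows of the authors' table of differential peaks that carry 1 of these gene names. There were 8 such peaks of 5332, and 6 of the 10 genes had at least 1. The 5332 peaks carried 4376 gene names in all, and the share of all annotated genes with a row was not computed. Ppp2ca, Ppp2r2a, Ppp2r5d and Ppp2r5e had no deposited differential peak. The set was proposed because Ppp2cb and Ptpa hold very large gains in this same comparison, which means that the members were chosen on the very levels compared here. The levels in both genotypes are therefore a description, and no test is given for them.

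ATAC-Seq uses the Tn5 transposase to tag open DNA, and the level of a peak is its normalised number of reads. Sin3B-/- LT-HSCs came from C57BL/6 mice carrying Sin3B F/F and Vav1-iCre, whose Cre is active throughout the blood system and so also in other blood cells. Sin3B+/+ LT-HSCs came from mice labelled WT, also on the C57BL/6 background. The paper calls these controls Sin3B+/+ in its text and Sin3B F/F in its figure of the ATAC-Seq peaks. No treatment is given for either genotype. The cells were sorted from bone marrow as Lineage- Sca-1+ cKit+ Flk2- CD48- CD150+. Each genotype had 2 libraries, each pooled from 2 mice, and the age of these mice is not given in the sources used here. A peak level is an average over pooled cells, so more open cells and more open alleles per cell cannot be told apart.

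PP2A is one of the main serine/threonine phosphatases of the cell. A scaffold (A) subunit holds a catalytic (C) subunit and 1 of several regulatory (B) subunits, and the B subunit selects the substrate and the site of action. Ptpa is a chaperone-like prolyl isomerase that helps to bring the catalytic subunit into its active, metal-bound form. PP2A opposes cyclin-dependent kinases, and B55 holoenzymes take part in leaving mitosis and in the dephosphorylation of pocket proteins. B56 holoenzymes act on MYC, on Wnt signalling and at centromeres.

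The table gives only peaks with a difference between the genotypes, so levels elsewhere are not analysed here. Each library had levels in whole multiples of a step (tolerance 0.006), which was 0.228 and 0.343 for Sin3B+/+ and 0.625 and 1 for Sin3B-/-. Over all peaks the steps summed to 8705855 and 4836132 in Sin3B+/+ and to 4541377 and 3102888 in Sin3B-/-. Steps are not corrected for depth, so lower step numbers in Sin3B-/- are shared by the table as a whole. The median level of all peaks was 214 and 180 in the Sin3B+/+ libraries and 319 and 343 in the Sin3B-/- libraries. The median change over the 5332 peaks was 0.76 on the log2(level + 1) scale, and centring each library on its median set that shift close to 0. Changes are therefore given on both scales where the sign depends on it. All 5332 peaks had passed the authors' test, and 95.7% were higher in both Sin3B-/- libraries. A centred change is thus a gain or loss relative to the median of these called peaks. A centred value below 0 does not by itself show a loss of accessibility. Sin3b itself had no row, so its deletion could not be checked in this table. Of 8 LT-HSC marker genes, Slamf1, Procr, Fgd5 and Hoxb5 had rows. Of 11 lineage marker genes, only Hbb-bt had one, and the progenitor markers Cd48 and Flt3 had none. A row marks a changed peak and does not show which cells were present, and the part of other cells in the results was not tested.

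The 8 peaks fell into different kinds of sequence, and the stretches that show this are printed first. Bases are from the mm10 build and are in lower case. Capitals mark matches, on either strand, to 8 searched motifs. The cell cycle element CHR was searched as TTTGAA. E2F sites were searched as TTTCCCGC and as TTTCGCGC, and in addition as TTTGCCGC and as TTTGGCGC. The ETS site was CCGGAAGT, and the NFY site, or CCAAT box, was CCAAT. The SP/KLF site was GGGCGG and the cyclic AMP element CRE was TGACGTCA. For the blood cell factor RUNX the letters were TGTGGT. The GATA site was AGATAA. Matches may overlap, and an E2F match followed by more C and G can share bases with an SP/KLF match. The central 300 bases of the Ppp2cb peak, chr8:33593854-33594153 on the + strand, are shown because this peak had the largest gain of the set and held none of the motifs.
Ppp2cb upstream peak: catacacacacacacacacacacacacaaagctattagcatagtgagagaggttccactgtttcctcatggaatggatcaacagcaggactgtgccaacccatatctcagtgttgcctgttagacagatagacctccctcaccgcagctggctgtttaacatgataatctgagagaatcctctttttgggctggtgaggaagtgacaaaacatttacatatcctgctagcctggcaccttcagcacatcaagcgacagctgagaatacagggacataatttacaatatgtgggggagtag
The Ptpa peak lies in a 3′ UTR, and only its central 30 bases, chr2:30447465-30447494 on the + strand, are given. They held no searched motif, and neither did the central 300 bases.
Ptpa 3′ UTR peak: tcaccagttttctctcagcgtgtggctgaa
The 300 bases before the starts of Ppp2r1a (chr17:20945011-20945310, + strand) and Ppp2r5a (chr1:191397042-191397341, - strand) are shown because these were the 2 promoters with a peak of their own name. Each held a pair of CCAAT boxes. Ppp2r1a had 1 ETS site besides, and Ppp2r5a had an E2F site that runs into an SP/KLF site.
Ppp2r1a promoter: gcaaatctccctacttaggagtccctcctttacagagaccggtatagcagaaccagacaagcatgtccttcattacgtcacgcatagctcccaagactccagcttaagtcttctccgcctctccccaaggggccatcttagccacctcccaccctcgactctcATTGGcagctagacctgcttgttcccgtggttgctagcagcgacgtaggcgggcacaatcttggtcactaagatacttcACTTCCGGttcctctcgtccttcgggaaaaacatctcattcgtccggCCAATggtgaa
Ppp2r5a promoter: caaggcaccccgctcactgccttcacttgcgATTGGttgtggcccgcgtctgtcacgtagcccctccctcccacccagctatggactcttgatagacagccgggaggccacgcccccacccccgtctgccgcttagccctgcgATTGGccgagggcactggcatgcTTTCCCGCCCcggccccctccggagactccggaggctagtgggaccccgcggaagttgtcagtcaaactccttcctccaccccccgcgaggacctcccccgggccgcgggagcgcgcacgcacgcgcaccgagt
Distal peaks of the other subunits are represented by the most accessible one, the first Ppp2r5c peak (chr12:110454347-110454646, + strand), with 1 RUNX and 1 GATA match, and by the intronic Ppp2r1b peak (chr9:50865878-50866177, + strand), with 1 CHR and 1 SP/KLF match.
Ppp2r5c first peak: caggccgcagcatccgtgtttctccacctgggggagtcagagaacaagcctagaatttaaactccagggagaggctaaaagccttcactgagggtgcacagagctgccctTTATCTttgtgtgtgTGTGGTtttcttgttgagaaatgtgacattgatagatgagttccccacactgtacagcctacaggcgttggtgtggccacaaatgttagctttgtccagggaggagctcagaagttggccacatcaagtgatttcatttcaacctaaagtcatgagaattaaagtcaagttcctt
Ppp2r1b intron peak: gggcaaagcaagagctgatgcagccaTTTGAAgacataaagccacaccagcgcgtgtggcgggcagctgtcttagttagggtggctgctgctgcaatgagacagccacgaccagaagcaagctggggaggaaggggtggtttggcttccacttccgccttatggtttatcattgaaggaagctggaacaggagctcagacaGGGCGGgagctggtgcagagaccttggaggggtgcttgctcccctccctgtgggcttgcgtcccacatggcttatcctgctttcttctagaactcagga
Such short motifs are common. Among the central 300 bases of all 5332 peaks, NFY was found in 35.5%, SP/KLF in 30.4%, RUNX in 28%, GATA in 17.8%, CHR in 13.6%, ETS in 3.13%, E2F in 1.97% and CRE in 1.97%. In the 300 bases before 42101 starts of coding transcripts, NFY was found in 37.9%, SP/KLF in 43.1%, ETS in 4.08% and E2F in 2.64%. A match describes the letters only.

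Of the catalytic subunits, Ppp2cb, which encodes the beta isoform, had 1 peak and Ppp2ca, the alpha isoform, had none. The Ppp2cb peak (chr8:33593663-33594345) was intergenic, and its centre lay 5621 bp upstream of the only annotated start of the gene. Its level was 21.7 and 20.6 in the Sin3B+/+ libraries and 199.9 and 221 in the Sin3B-/- libraries. The genotypes did not overlap, and the lowest Sin3B-/- library was 9.22 times the highest Sin3B+/+ library. The means were 21.1 ± 0.785 and 210.5 ± 14.9 (SD, n = 2 each), a ratio of 9.96. The change was 3.26 on the log2(level + 1) scale with an SE of 0.22, and 2.50 with the libraries centred. It ranked 2 of the 5332 peaks by this change, on either scale. Counted in steps, Sin3B+/+ had 95 and 60 and Sin3B-/- had 320 and 221, and the Sin3B-/- libraries were thus also higher before the scaling.

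Ptpa had the other very large gain. Its peak (chr2:30447213-30447747) had its centre in the 3′ UTR of the last exon, 326 bp before the end of the gene and 4745 bp downstream of the nearest start of one of its transcripts. The level was 9.58 and 5.14 in the Sin3B+/+ libraries and 62.5 and 66 in the Sin3B-/- libraries. This peak had the lowest mean Sin3B+/+ level of all 5332 peaks, whereas its Sin3B-/- level ranked 423 from the lowest. The means were 7.36 ± 3.14 and 64.2 ± 2.49 (SD, n = 2 each), a ratio of 8.73. The change was 3.02 ± 0.22 (SE) on the log2(level + 1) scale, 2.26 with the libraries centred, and it ranked 4 of 5332 on either scale. It was the largest gain among the 97 peaks with their centre in a 3′ UTR, which made up 1.82% of the table. In steps the levels were 42 and 15 against 100 and 66, so the low Sin3B+/+ value of replicate 2 rests on few steps. Without that library the change was 2.62, and without Sin3B+/+ replicate 1 it was 3.41.

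**Figure D1:**
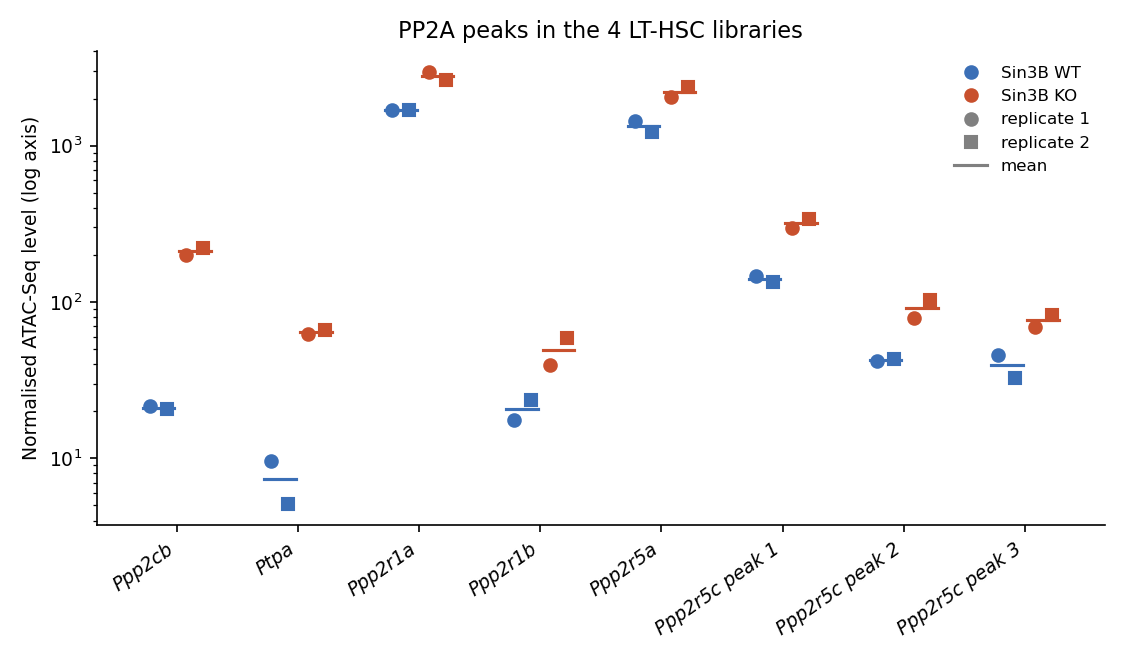
Normalised ATAC-Seq level (log axis) of each PP2A peak in the 4 libraries, with Sin3B+/+ (WT) in blue, Sin3B-/- (KO) in red, circles for replicate 1, squares for replicate 2 and a line at the mean of each genotype. Ppp2cb rises from 21.1 to 210.5 and Ptpa from 7.36 to 64.2, whereas the Ppp2r1a and Ppp2r5a promoter peaks stay within a ratio of 1.66 between means.

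The scaffold genes had 1 peak each, of opposite kinds. Ppp2r1a encodes the main scaffold isoform, and its peak (chr17:20944934-20945929) covered the start, with its centre 120 bp downstream in the 5′ UTR. The centre also lay 282 bp upstream of the start of Gm49761, a long non-coding RNA gene on the other strand, and through that start the peak counted as a promoter peak. The level was 1692 and 1700.1 in Sin3B+/+ and 2942 and 2641 in Sin3B-/-, with means of 1696 ± 5.83 and 2792 ± 213 (SD, n = 2 each). The change was 0.72 ± 0.22 (SE), close to the table's median of 0.76, and it turned to -0.036 with the libraries centred. Counted in steps, Sin3B+/+ had 7415 and 4960 and Sin3B-/- had 4709 and 2641, so both Sin3B-/- libraries were the lower ones before the scaling. Steps are not corrected for depth, and their sums over the table were also lower in Sin3B-/-. The direction at this promoter therefore depends on the scaling.

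Ppp2r1b, the less abundant scaffold isoform in most tissues, had a small intronic peak (chr9:50865835-50866222), 9062 bp from its nearest start. The level was 17.6 and 23.7 in Sin3B+/+ and 39.4 and 59 in Sin3B-/-. The genotypes did not overlap, but the Sin3B-/- libraries differed from each other by more than the Sin3B+/+ libraries, with means of 20.6 ± 4.30 and 49.2 ± 13.9 (SD, n = 2 each). The change was 1.20 ± 0.22 (SE) and 0.45 with the libraries centred. In steps the levels were 77 and 69 against 63 and 59, so the gain of this peak is seen on the scaled levels only. Steps are not corrected for depth, and their sums over the table were lower in Sin3B-/- as well.

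Among the regulatory subunits of the set, Ppp2r5a and Ppp2r5c, both B56 genes, had peaks. Ppp2r5a, a B56 subunit, had a peak at its promoter (chr1:191396908-191397906), with its centre 366 bp upstream of the start. The level was 1429.9 and 1228 in Sin3B+/+ and 2039 and 2371 in Sin3B-/-, with means of 1329 ± 143 and 2205 ± 235 (SD, n = 2 each). The change was 0.73 ± 0.22 (SE), and it turned to -0.022 with the libraries centred. Counted in steps, Sin3B+/+ had 6267 and 3582 and Sin3B-/- had 3264 and 2371, again with Sin3B-/- lower, as in the sums over the table. The size of the change was nearly that of the Ppp2r1a promoter peak, and the difference between them was below the SE of either.

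Ppp2r5c, another B56 subunit, was the only gene of the set with more than 1 peak. The first (chr12:110454217-110454778) lay 7377 bp downstream of the first base of the gene, beyond the end of a short first transcript and before the other annotated starts. Its level was 147 and 134 in Sin3B+/+ and 299 and 340 in Sin3B-/-, a change of 1.18 ± 0.22 (SE). The second (chr12:110503447-110503758) was intronic, with levels of 42.0 and 43.2 against 78.7 and 103 and a change of 1.06. The third (chr12:110549332-110549827) was intronic as well, with levels of 46.1 and 32.6 against 69.4 and 83 and a change of 0.95. All 3 peaks were higher in both Sin3B-/- libraries, and with the libraries centred their changes were 0.43, 0.31 and 0.20. Counted in steps, the first had 644 and 390 in Sin3B+/+ and 478 and 340 in Sin3B-/-. The second had 184 and 126 against 126 and 103, and the third 202 and 95 against 111 and 83. These gains are thus seen on the scaled levels only. Steps are not corrected for depth, and their sums over the table were lower in Sin3B-/- too. The 3 peaks share a gene and the same libraries and are not replicates of one another.

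Another peak inside Ppp2r5c carries another name. The peak named for Gm19605 (chr12:110485175-110486442) had its centre 51 bp from the nearest annotated Ppp2r5c start, and the name in the table kept it out of the set. Its level was 640.2 and 474 in Sin3B+/+ and 1109.7 and 1188 in Sin3B-/-, a change of 1.06 ± 0.22 (SE) and of 0.31 with the libraries centred. The estimate was above those at the Ppp2r1a and Ppp2r5a promoters, with 1.06 against 0.72 and 0.73. Each had an SE of 0.22, and the difference was not tested.

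**Figure D2:**
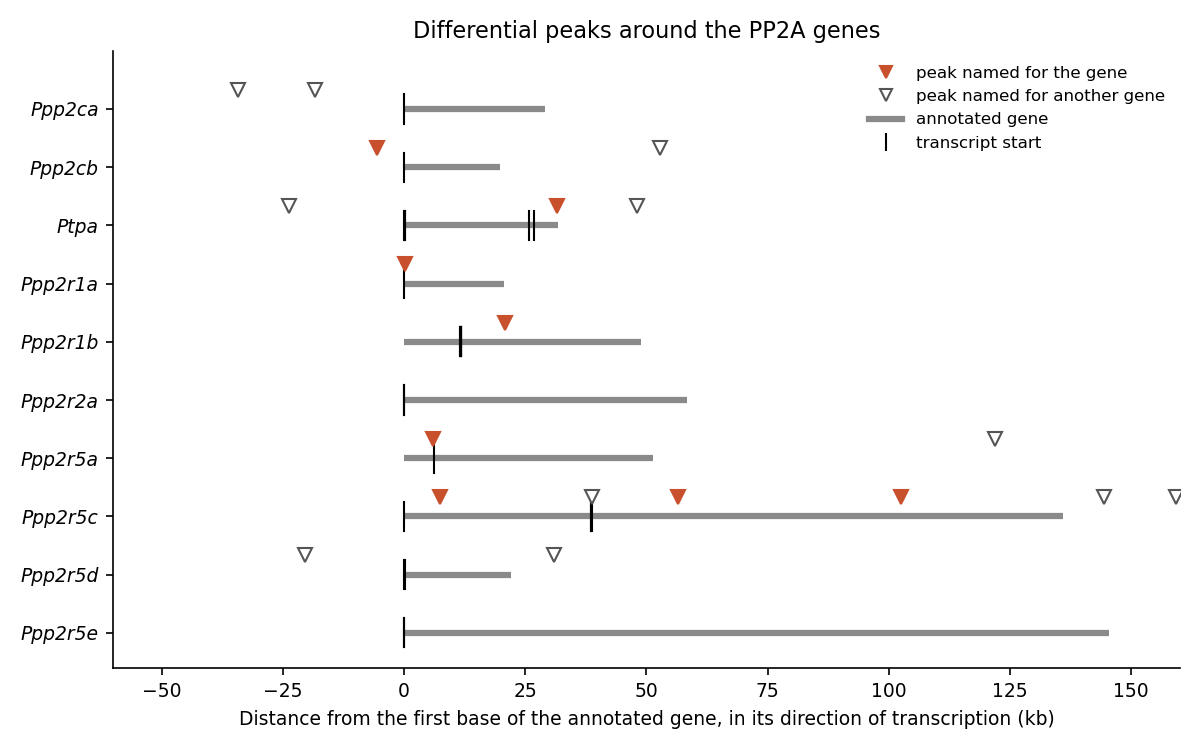
Position of the differential peaks (triangles) around each PP2A gene, as distance in kb from the first base of the gene in its direction of transcription, with filled triangles for peaks named for the gene, open triangles for peaks named for another gene, grey bars for the annotated gene and black ticks for transcript starts. Filled triangles sit on a start only for Ppp2r1a and Ppp2r5a, the Ppp2cb triangle lies 5621 bp before the gene and the Ptpa triangle lies at its end.

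The 4 genes without a peak of their own differed in what lay around them. For Ppp2ca, the peak closest to the start was 18459 bp upstream, within an intron of Cdkl3, and bears that name. Its level was 176 and 137 in Sin3B+/+ and 341 and 322 in Sin3B-/-, a change of 1.08. By the rule of the nearest start this peak would fall to Ppp2ca. For Ppp2r5d, a B56 subunit, the peak closest to a start lay 20370 bp from it and was named Gnmt, with a change of 0.90. A peak named Rrp36 lay nearer to the gene, 8300 bp outside its other end, and changed by 0.73, or by -0.019 with the libraries centred. For Ppp2r5e, also a B56 subunit, it lay 73332 bp away at the start of Wdr89, with a change of 0.73 that turned to -0.023 with the libraries centred. For Ppp2r2a, the B55 alpha subunit, the closest lay 226037 bp away. A gene without a row may still have an accessible promoter that did not pass the authors' FDR of 0.05. It may also have a peak among those that the paper counts but the table lacks.

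Other peaks near the 2 large gains moved less. The peak closest to that of Ppp2cb was 58491 bp away, 743 bp from the start of Gsr, which encodes glutathione reductase, and it had levels of 23.5 and 18.5 against 68.7 and 78, a change of 1.76. The peak closest to that of Ptpa was 16587 bp away and named Ier5l, with levels of 289 and 273 against 554 and 594 and a change of 1.03. On the other side of Ptpa, the Dolpp1 promoter peak changed by 0.77. Ppp2cb and Ptpa had no peak at their own starts in the table.

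Over the set, all 8 peaks were higher in both Sin3B-/- libraries than in both Sin3B+/+ libraries, as were 95.7% of all 5332 peaks. A change of at least 1 on the log2(level + 1) scale was seen in 5 of 8 peaks and in 22.4% of the table. These 5 were Ppp2cb, Ptpa, Ppp2r1b and the first and second Ppp2r5c peaks, and their number was 2 (Ppp2cb and Ptpa) with the libraries centred and 3 without Sin3B-/- replicate 2. The median change was 1.12 over the 8 peaks and 0.76 over the table. Because the set was chosen with this comparison in view, nothing about PP2A is read from these shares. A change of at least 2 was seen in 44 peaks of the table, and Ppp2cb and Ptpa were the members among them. A gap from 1.20 to 3.02 separated these from the other members.

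**Figure D3:**
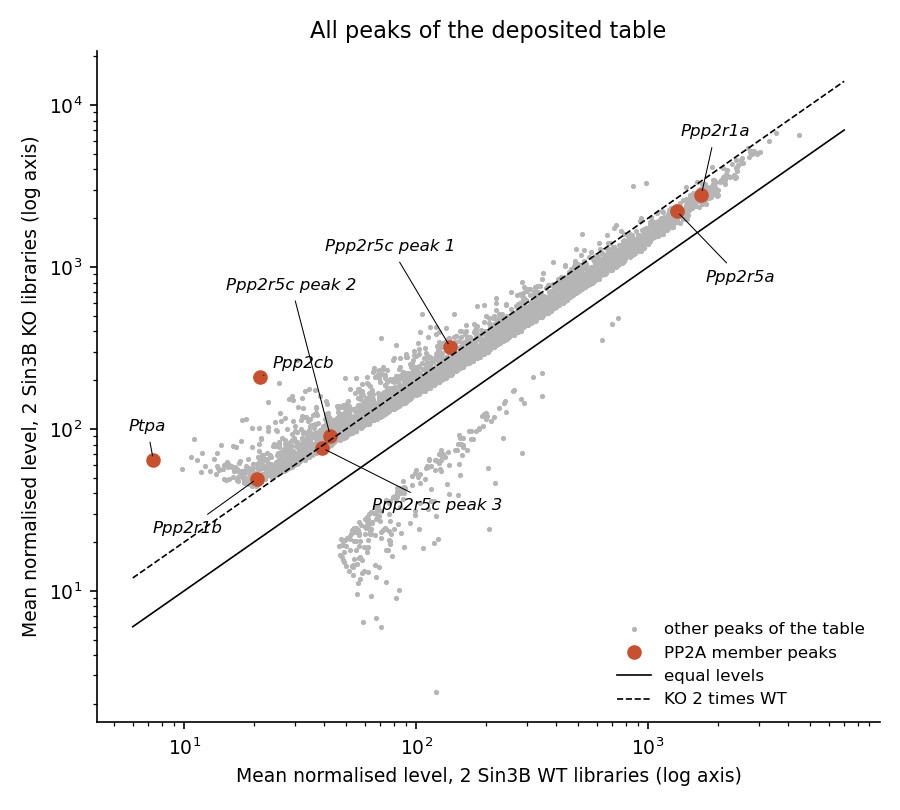
Mean normalised level of each peak in the 2 Sin3B-/- (KO) libraries against the 2 Sin3B+/+ (WT) libraries, both on log axes, with all 5332 peaks in grey, the 8 PP2A peaks in red, a solid line at equal levels and a dashed line where KO is 2 times WT. Ppp2cb (21.1 to 210.5) and Ptpa (7.36 to 64.2) stand above the grey band, and the other 6 lie within it.

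Levels of different peaks were compared per kb of peak. In Sin3B+/+ the order was Ppp2r1a with a mean of 1703 per kb, Ppp2r5a with 1330.2, the Ppp2r5c peaks with 249.7, 136 and 79.3, Ppp2r1b with 53.1, Ppp2cb with 30.9 and Ptpa with 13.8. No neighbours in this order overlapped between libraries. In Sin3B-/- the first 3 places were unchanged, with 2803, 2207 and 568 per kb. Ppp2cb followed with 308 per kb (293 to 324 in the libraries), and it overlapped the second Ppp2r5c peak at 291 (252 to 330.1). The third Ppp2r5c peak had 154 per kb, Ppp2r1b had 127 and Ptpa had 120.1. Ppp2r1b, with 101 to 152 per kb, overlapped both the third Ppp2r5c peak (139.8 to 167) and Ptpa (117 to 123). By the means, Ppp2cb thus moved from place 7 of 8 to place 4, and Ptpa remained the lowest. Neither place held in both Sin3B-/- libraries.

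The set split by sequence in the same way as by position. The 2 promoter peaks had a CpG observed/expected ratio of 0.836 (Ppp2r1a) and 0.837 (Ppp2r5a) and GC contents of 59.6% and 63.0%. The other 6 had CpG ratios between 0.0847 (Ppp2cb) and 0.298 (the third Ppp2r5c peak), below the table's median of 0.331. Ptpa had a CpG ratio of 0.153 with 58.5% GC, and Ppp2cb had 45.7% GC, where the table's median was 53.3%. A ratio over 0.6 was found in 29.1% of all peaks and a promoter in 33.3%. Over the whole table, the median change was 0.67 at the 1776 promoter peaks and 0.83 at the 3556 others, so changes like those of Ppp2r1a (0.72) and Ppp2r5a (0.73) lay near the median of their class. Of the 44 peaks with a change of at least 2, 30 had their centre in an intron, 6 in a coding exon, 5 in a 3′ UTR and 3 between genes, and 1 was at a promoter. Ppp2cb was 1 of the 3 between genes, and Ptpa was 1 of the 5 in a 3′ UTR.

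**Figure D4:**
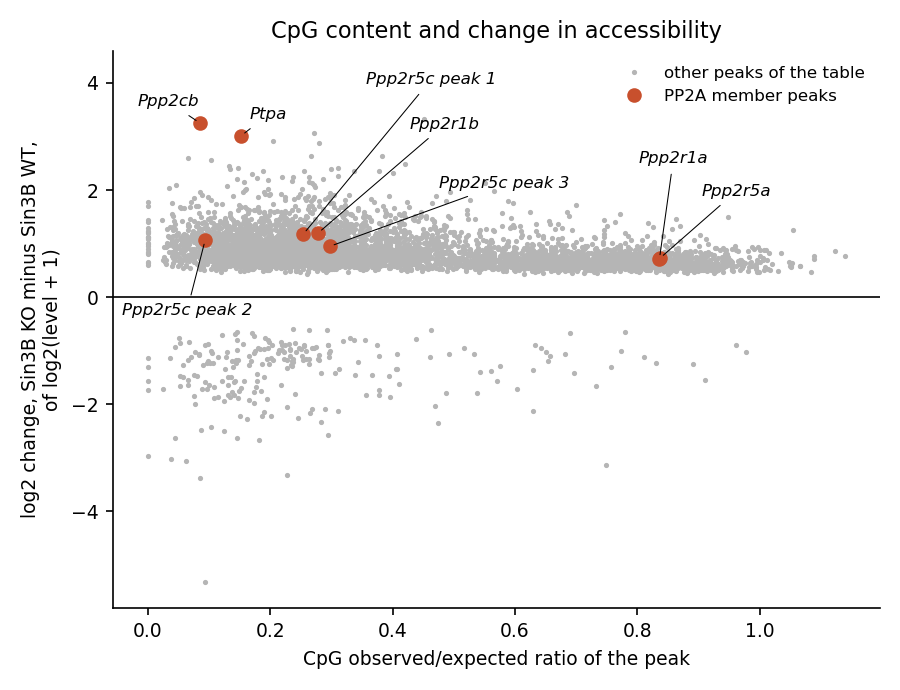
Change between the genotypes on the log2(level + 1) scale against the CpG observed/expected ratio of the peak, with all 5332 peaks in grey and the 8 PP2A peaks in red. Ppp2cb (0.0847, 3.26) and Ptpa (0.153, 3.02) lie among CpG-poor peaks, and Ppp2r1a and Ppp2r5a almost coincide at a ratio near 0.84 and a change near 0.7.

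Peaks with low levels had larger changes in this table. In decile 1 of mean level over the 4 libraries, which holds Ptpa and Ppp2r1b, the median change was 1.15 (quartiles 0.98 and 1.37). In decile 3, which holds Ppp2cb, it was 0.90 (quartiles 0.81 and 1.07), and in decile 10, which holds Ppp2r1a and Ppp2r5a, it was 0.67. The changes of Ppp2r1b (1.20), of the second Ppp2r5c peak (1.06) and of the third (0.95) lay near the medians of their deciles, 1.15 and 1.02. The first Ppp2r5c peak (1.18) lay above the upper quartile of decile 5 (0.90, with a median of 0.77). The changes of Ppp2cb and Ptpa lay far above the medians of their own deciles. A low peak needs a larger change to pass the authors' FDR, and the part of this selection in the trend was not tested.

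The peaks whose profile over the 4 libraries was most like those of Ppp2cb and Ptpa were found by the Euclidean distance between log2(level + 1) values, each centred on its own mean. For Ppp2cb these were peaks named Clasp2 (distance 0.226), Aars2 (0.244) and Ddx19a (0.508). For Ptpa they included peaks named Clasp2 (0.448) and Cul4a (0.488). The 4 peaks named here were intronic, with changes between 2.64 and 3.32. With 4 libraries, such a likeness says little beyond a change of similar size.

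Other genes of phosphatase regulation were taken from a list of 60 genes outside the set. Of these, 20 had a row and 40 had none. The share of all annotated genes with a row was not computed, so the gene counts here and below are descriptions only. All 22 peaks of these 20 genes were higher in Sin3B-/-, as were 95.7% of all peaks. The median change of the 22 was 0.77, close to that of the table. With the libraries centred, 10 of the 22 fell below 0, on a scale where the median of all peaks was 0.0054. A change of at least 1 was seen at 7 of the 22, against 22.4% of all peaks. Among PP2A inhibitors, 6 of 12 genes had a peak, namely Anp32b (1.37), Arpp19 (1.08), Anp32a (1.05), Bod1l (1.02), Ensa (0.84) and Anp32e (0.61, and -0.14 centred). Arpp19 and Ensa encode the small proteins that inhibit B55 holoenzymes once phosphorylated in mitosis, and the Ensa peak was at its promoter.

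Genes for PP2A methylation and assembly had a peak in 2 of 4 cases. Lcmt1, the methyltransferase of the catalytic subunit, had a peak with a change of 0.54 that was -0.21 centred. It counted as a promoter peak, but its nearest start, at 187 bp, was that of Arhgap17. Ppme1, the opposing methylesterase, had an intronic peak with 0.77. Of the remaining B-type subunits, Ppp2r3d had a promoter peak with levels of 5213 and 3723 against 6464 and 6495, a change of 0.56 and of -0.20 centred. It was 3291 bp wide, the widest peak of the table. The STRIPAK complex, which joins striatins, kinases and the PP2A core, had a peak in 5 of 15 genes: Sike1 (0.79), Stk24 with 2 peaks (0.72 and 0.69), Fgfr1op2 (0.58), Pdcd10 (0.57) and Strn4 (0.53). With the libraries centred, 5 of these 6 peaks were below 0, and only Sike1 (0.036) stayed above. All peaks of the table had a median of 0.0054 on that scale, with quartiles of -0.12 and 0.22.

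Among the related phosphatases, 1 of 6 PP4 genes, 3 of 7 PP6 genes and 2 of 7 PP1, PP5 and calcineurin genes had a peak. Ankrd52, a regulatory ankyrin-repeat subunit of PP6, had the largest change among the 22 peaks of this list, with levels of 27.6 and 23.99 in Sin3B+/+ and 122 and 127 in Sin3B-/- and a change of 2.23 (1.48 centred). The genotypes did not overlap, and the peak lay in a coding exon. Ppp6r1, a PP6 regulatory subunit, had peaks with 1.45 and 0.77, and Ppp6r3 had a promoter peak with 0.82. Ppp5c changed by 1.26, Ppp4r3b by 0.61 (-0.14 centred) and Ppp1ca by 0.55 (-0.20 centred). No peak bore the name of either gene of Integrator-bound PP2A on the list.

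**Figure D5:**
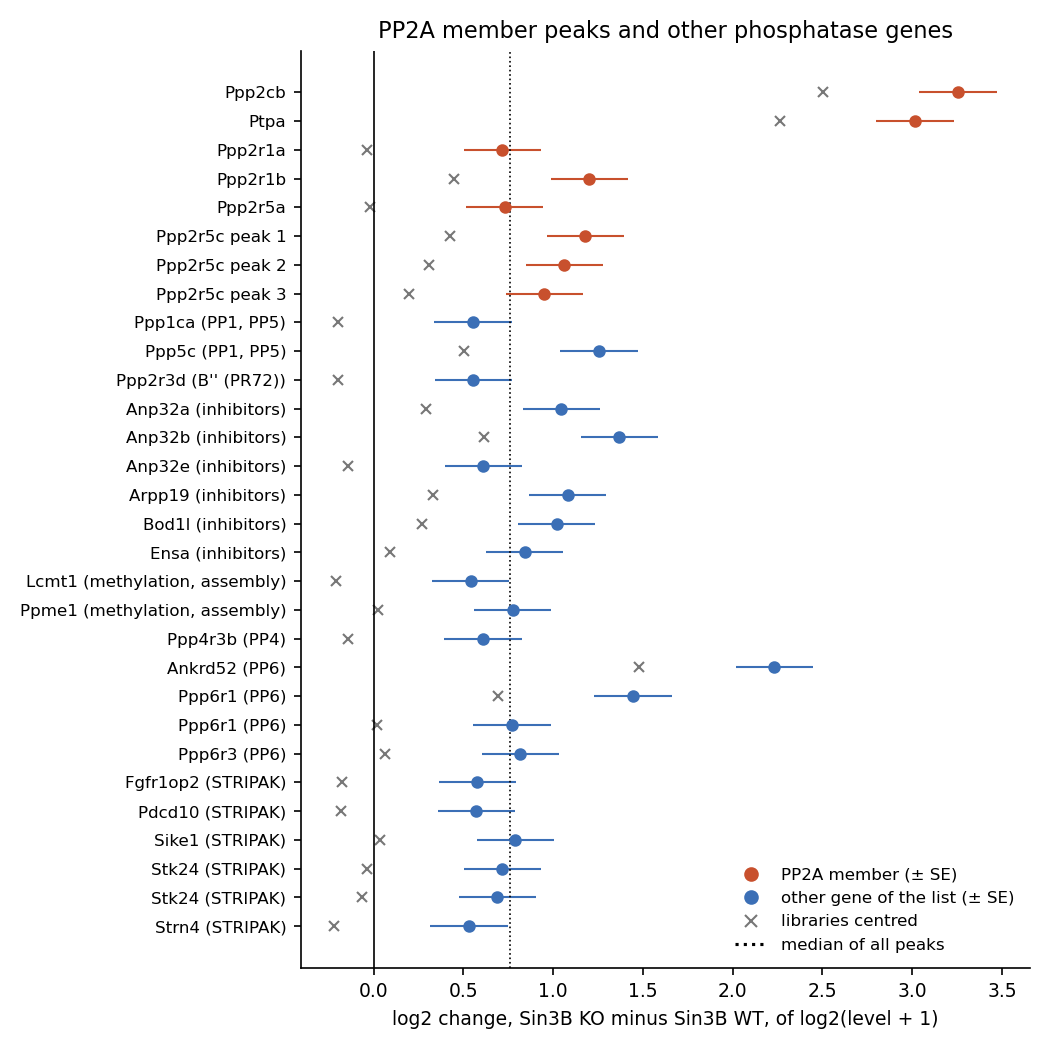
Change between the genotypes on the log2(level + 1) scale (dot, with its SE as a bar) for the 8 PP2A peaks in red and the 22 peaks of other phosphatase genes in blue, with a cross for the change after centring the libraries, a solid line at 0 and a dotted line at the median of all peaks (0.76). Ppp2cb, Ptpa and Ankrd52 stand to the right of the others, and their crosses stay above 1.4.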

How the data were processed

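ATAC-Seq of sorted LT-HSCs was analysed in 2 Sin3B+/+ and 2 Sin3B-/- libraries, grouped by the genotype and replicate number in the labels. The authors ran FastQC, trimming, Bowtie2 alignment, removal of duplicates by sambamba, MACS2 peak calling and the DiffBind test with DESeq2; versions are not given in the sources used here. The authors deposited the peaks with an FDR under 0.05, with a normalised signal per library. The paper reports more peaks at this FDR, in both directions, than were found here, and the reason is unknown. The deposited log2 levels and fold and the deposited p-values hold the authors' own results and were not used.

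The submitters' notes name build mm9, but 5330 of 5332 gene identifiers were found in GENCODE M21 and 96.6% of the table's gene spans were equal to it, so the mm10 (GRCm38) sequence and the basic transcripts were used. A peak was at a promoter if its centre fell in the 1000 bp before a start or the 100 bp after it. limma 3.58.1 in R 4.3.3 was fitted to log2(level + 1) over all peaks, with Benjamini-Hochberg adjustment at 0.05. It gave every peak the same SE, since it estimated no difference in variance between peaks beyond chance, so the SD of each genotype is printed as well. The fit was tested on simulated data. All peaks had already passed the authors' test, so the fit is no new test of them. How deep each library was sequenced is unknown here. Nothing says which mice share a litter or day, and p-values would measure only the spread between these libraries.

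The members and gene lists were chosen with earlier results of these data known. Every member was named, as was every other list gene with a row, with the 3 peaks most like Ppp2cb and like Ptpa, of which 1 is not reported here; Gsr, Ier5l, Dolpp1, Gm19605, Gm49761, Cdkl3, Gnmt, Rrp36 and Wdr89 were named for their position. Software was Python 3.11.15, numpy 2.4.6, pandas 2.3.3, pysam 0.24.0, samtools 1.23.1 and matplotlib 3.10.9.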

Additional observations from a re-analysis of the deposited data

How the results depend on the processing

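Of 72 changes recomputed for the 8 PP2A peaks under the alternatives, 62 moved by less than the spread between replicates, 8 moved by more and 2 changed sign. Most of the 62 were fixed beforehand. The replicate block and the level filter left these changes as they were, and leaving out 1 library cannot move a change beyond that spread. Only centring, log2(level + 5) and the ratio of means without a pseudocount could do so. The changes of sign were Ppp2r1a (-0.036) and Ppp2r5a (-0.022) with each library centred on its median. Centring removes the shift of 0.76 shared by the table, whose peaks were all called by the authors. These values place both peaks close to the table's median and do not by themselves show a loss. Centring also lowered the median change of the set to 0.37, its count of changes of at least 1 to 2, and the peaks of the table called higher in Sin3B-/- to 374. Leaving out 1 library gave medians of 0.89 to 1.26, counts of 3 to 6, and 3121 to 5100 peaks called higher; the lowest values were without Sin3B-/- replicate 2, and a lone library was assumed to vary like the other genotype. With log2(level + 5), Ppp2cb changed by 3.04 and Ptpa by 2.51.

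The replicate block, used because both genotypes carry the numbers 1 and 2, gave 5064 peaks called higher against 5103 without it, and 229 lower in both, and changed no other call. The deviations of same-numbered libraries had a correlation of -0.101 across peaks, and the crossed pairing, added after seeing the data, gave 5103 higher and 229 lower. The filter on a mean level of 20 removed no peak. Assignment by nearest start, with all transcripts or by overlap with a gene's span, the last 2 added after seeing the data, gave 8 peaks each time, but not the same ones. Nearest start kept 6 of the 8 (both intronic Ppp2r5c peaks left, and those named Gm19605 and Cdkl3 entered), and overlap kept 7, with Ppp2cb out and Gm19605 in. The edgeR and DESeq2 alternatives were not run, because the values are scaled and not counts. The low step numbers of Ptpa in Sin3B+/+ (42 and 15) limit the precision of its ratio.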
